A study of Mus musculus with 8 samples.

Results

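The 84 genes described here encode the proteins of the cytosolic ribosome in mouse, the particle that translates messenger RNA in the cytoplasm. They were chosen by name alone, as genes called Rpl or Rps followed by a number, together with Rplp0, Rplp1, Rplp2 and Rpsa. Pseudogenes and the S6 kinase genes, whose names begin alike, were left out. They make up 84 of the 34745 genes listed, with 51 for the large and 33 for the small subunit, and 82 of them had enough counts to be tested. Rpl10l, at 0 counts in every library, and Rpl39l did not.

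Messenger RNA was sequenced from wild-type (WT) mouse kidney at day 14 in 3 groups, which were sham (n = 2), uIRI (n = 3) and uIRI with transplantation of MSCs, written uIRI+MSC here (n = 3). In kidney research uIRI usually stands for unilateral ischaemia-reperfusion injury and MSC for mesenchymal stem or stromal cell. The labels spell out neither term, and they give no source, dose or timing for the cells and no age or sex of the mice. Nor do they state that each library is a different mouse, so p-values measure only the spread between these samples.

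Ribosomal protein mRNAs are among the most abundant of any cell, and most are short. Many begin with a tract of C and T bases at their first transcribed position, the terminal oligopyrimidine (TOP) tract, through which the mTOR kinase and the RNA-binding protein LARP1 control how strongly they are translated. Most of the proteins are needed in equal numbers for each ribosome, although the stalk proteins Rplp1 and Rplp2 are present in more copies and some paralogs take the place of their parent. The mouse genome also carries many processed pseudogenes of their genes.

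Sequences at the annotated start of transcription show what several members share. A start window in RefSeq (build GRCm38.p6) was matched for 63 of the 84 members by symbol. The following windows run from 15 bases before to 15 bases after the annotated start, on the strand of the gene, and capitals mark the longest run of C and T where it reached 6 bases. Rpl35, Rps24, Rpl12 and Rpl39 passed the test in uIRI against sham and carry a run in the window shown. Rps28 and Rps4x passed it and carry none, and Rpl15 and Rps6 carry a run and did not pass it. A gene with several start windows was counted by its longest run, and a second window of Rps24 has a longest run of 4. The run may lie anywhere in the window, so these windows do not show whether an mRNA has a TOP tract.
Rpl35 (chr2:39005117-39005146, minus strand): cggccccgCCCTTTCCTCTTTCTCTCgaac
Rps24 (chr14:24490663-24490692, plus strand): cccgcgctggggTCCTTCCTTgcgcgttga
Rpl12 (chr2:32961697-32961726, plus strand): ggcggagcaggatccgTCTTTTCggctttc
Rpl39 (chrX:37085208-37085237, minus strand): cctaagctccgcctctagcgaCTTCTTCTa
Rps28 (chr17:33824548-33824577, minus strand): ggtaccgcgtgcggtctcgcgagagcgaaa
Rps4x (chrX:102189377-102189406, minus strand): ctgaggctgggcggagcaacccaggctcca
Rpl15 (chr14:18270972-18271001, minus strand): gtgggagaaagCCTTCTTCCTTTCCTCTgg
Rps6 (chr4:86857353-86857382, minus strand): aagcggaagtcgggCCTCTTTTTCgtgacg

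A run of at least 6 C or T bases stood in this 30-base window in 38 of the 63 members (60.3%) and in 32.7% of 27025 genes. Among members with a window, 7 of the 9 that were higher in uIRI than in sham carried such a run, and so did 30 of the 51 that did not pass. The letters CTTTCC on the strand of the gene, searched in the 100 bases centred on the start, were found in 30.2% of the members and 5.43% of all genes. On either strand of the 300-base promoter window, CCGGAAG was found in 41.3% against 9.93%, GGGCGG in 61.9% against 38.2% and AAGATGG in 15.9% against 7.28%. These are matches of letters and do not show that a factor was bound.

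The second set of sequences shows why a count for a member can depend on how reads were assigned. Each coding sequence was cut into overlapping 50-base pieces, and a piece was called unique when no other gene of the GENCODE M21 annotation carried it on either strand. Of the 83 members with a coding transcript, 29 had no unique piece, 68 had under 50% unique pieces, 10 had 50 to 90% and 5 had 90% or more, among them Rpl3l, Rpl39l, Rps3 and Rpl8. Rpl7a shared pieces with 123 other genes, of which 120 are annotated as pseudogenes, and Rpl21 with 82. How the authors assigned a read that fits several genes is not stated in the labels or column names, so levels of members with few unique pieces are uncertain. The clearest case is Rps27, a small subunit protein gene, whose 252 coding bases are identical to those of Rps27rt, a gene outside the name rule. Its other paralog Rps27l, a target of p53, matched 76.2% of the bases. Coding bases 161 to 210 of the 3 genes read as follows, with capitals where Rps27l differs from Rps27.
Rps27: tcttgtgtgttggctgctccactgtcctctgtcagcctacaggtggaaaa
Rps27rt: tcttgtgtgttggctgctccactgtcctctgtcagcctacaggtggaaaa
Rps27l: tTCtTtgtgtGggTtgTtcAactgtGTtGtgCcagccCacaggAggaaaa

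Values in CPM are counts scaled to a library of 1e6, scaled between libraries by the TMM method. Rps27 was at 1.17 and 0.645 CPM in sham 1 and 2, 1.41, 1.65 and 1.41 in uIRI 1, 2 and 3, and 1.26, 1.36 and 1.43 in uIRI+MSC 1, 2 and 3. Rps27rt stood at 50.3 and 39.7 CPM in sham, 152, 151 and 146 in uIRI, and 143, 59.9 and 39.2 in uIRI+MSC. Rps27l, with 51.7% unique pieces, was at 79.5 and 53.8 CPM in sham, 46.4, 54.5 and 48.2 in uIRI and 60.8, 45.5 and 26.5 in uIRI+MSC. Reads of Rps27 and Rps27rt cannot be told apart within their coding sequence, and nearly all counts stood under the latter name.

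The depth of the 8 libraries was uneven and followed the groups in part. In units of 1e6 counts, the 2 sham libraries held 14.2 and 14.6, the 3 uIRI libraries 18.4 to 24.3, and uIRI+MSC 1, 2 and 3 held 22.7, 13.1 and 11.6. Every uIRI library and uIRI+MSC 1 lay above 16 of these units, and every sham library and uIRI+MSC 2 and 3 lay below, so depth and group cannot be told apart for uIRI against sham. Transcripts of mitochondrial DNA were 14.2% of either sham library, between 3.49 and 4.84% of the uIRI libraries, and 6.07, 6.24 and 11.3% of uIRI+MSC 1, 2 and 3. Between uIRI and sham, 9 of 9 kidney tubule markers fell, 8 of 11 leukocyte markers and 4 of 4 cycling cell markers rose. Among podocyte markers 0 of 3 passed. Of all tested genes, 26.3% were lower and 28.3% higher in uIRI. Summed over the list, sham libraries held 22651 and 24624 CPM of tubule markers, uIRI libraries between 3065 and 6011, and those of uIRI+MSC between 5316 and 7197. For leukocyte markers the ranges were 204 to 244, 2509 to 3922 and 1391 to 2036, in the same order. No marker of these lists was at 0 in any library. In bulk tissue, fewer cells of a type and less RNA per cell cannot be told apart, and the part of cell makeup in the results below was not tested.

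The ribosomal protein genes took a larger share of the counts in uIRI than in sham. Their share was 0.730% (95% interval 0.725 to 0.734, exact Clopper-Pearson) in sham 1 and 0.679% (0.674 to 0.683) in sham 2. It was 1.48% (1.48 to 1.49), 1.38% (1.38 to 1.39) and 1.35% (1.34 to 1.35) in uIRI 1, 2 and 3. In uIRI+MSC 1, 2 and 3 it was 1.33% (1.32 to 1.33), 1.18% (1.17 to 1.18) and 0.771% (0.766 to 0.776). The intervals cover counting error only. All uIRI libraries lay above all others, and uIRI+MSC 3 lay next to sham. The group means were 0.704 ± 0.0360% (SD, n = 2) for sham, 1.40 ± 0.0710% (n = 3) for uIRI and 1.09 ± 0.288% (n = 3) for uIRI+MSC. With mitochondrial counts left out of the total, they were 0.820, 1.47 and 1.18%.

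**Figure D1:**
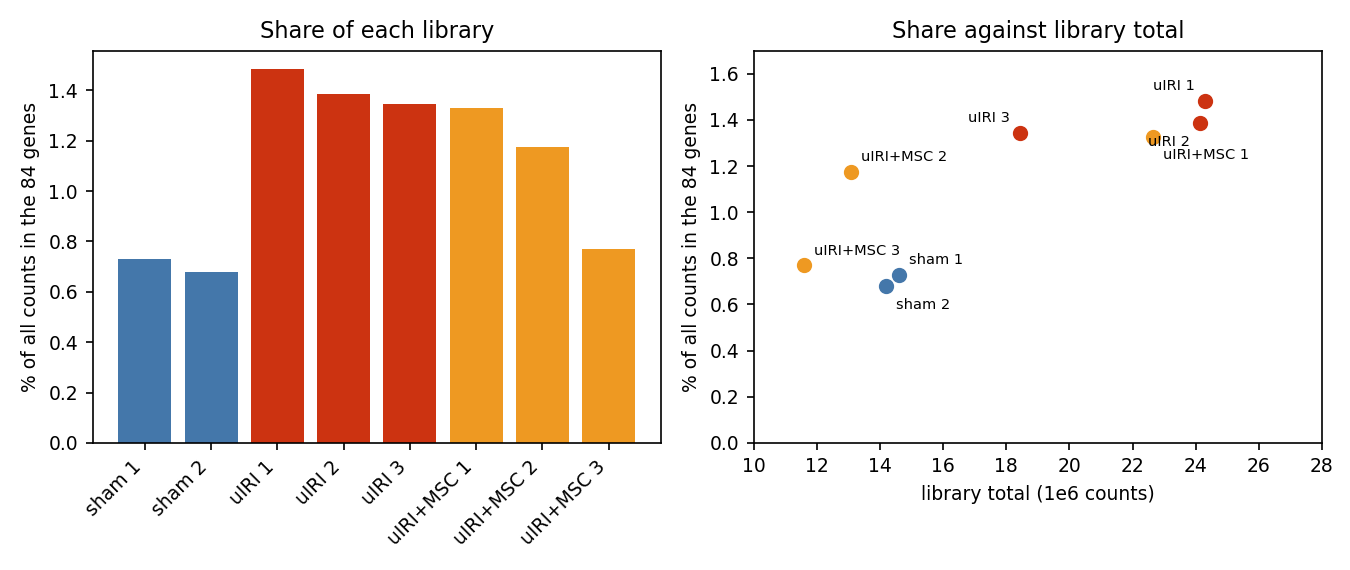
Percent of all counts in the 84 ribosomal protein genes, by library (left, bars from 0) and against the library total in 1e6 counts (right); blue is sham, red uIRI and orange uIRI+MSC. The 3 uIRI libraries sit between 1.35 and 1.48%, and the 2 sham libraries and uIRI+MSC 3, all of low total, sit between 0.679 and 0.771%.

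That gap was smaller after scaling between libraries. TMM factors were 0.706 and 0.766 in sham and 1.13 to 1.22 in uIRI. After TMM scaling the members summed to 10342 and 8865 CPM in sham, 12135, 12258 and 11674 in uIRI, and 12596, 10996 and 7503 in uIRI+MSC. Scaling by library size alone moved the median log2 change of all tested genes from 0.06 to 0.73 in uIRI against sham. The members' median lay 0.29 above that of all genes under either scaling.

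In uIRI against sham, more ribosomal protein genes were higher than lower, but most did not pass the test. Of the 82 tested members, 14 rose, 1 fell and 67 did not pass at an adjusted p of 0.05 (edgeR quasi-likelihood test with Benjamini-Hochberg adjustment over 16576 genes). The 14 are 17.1% of the members, while 28.3% of all tested genes were higher, and the 1 that fell compares with 26.3% of all genes lower. The median log2 fold change was 0.35 over the members and 0.06 over all tested genes, with 59 members above 0 and 23 below. In 49 members (59.8%) every uIRI library lay above both sham libraries, against 40.6% of all tested genes, and in 13 members every uIRI library lay below, against 36.5%. By subunit, 7 of 33 tested small subunit genes rose, with a median of 0.45, and 7 of 49 large subunit genes rose and 1 fell, with a median of 0.28.

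These counts depended on single libraries and changed with a term for depth. The part of depth itself was not tested. Leaving out sham 2 left 3 higher and 1 lower, and leaving out sham 1 or uIRI 1 left 6 higher and 1 lower in each case. Leaving out uIRI 2 left 8 higher and 1 lower, with 8187 genes passing in all, against 9044 in the fit to all libraries. Leaving out uIRI+MSC 3, whose spread enters the fit, gave 35 higher and 5 lower, with 9863 genes in all. Leaving out uIRI+MSC 1 gave 25 higher and 1 lower, with 8849 in all. With library total above or below 16 (in 1e6 counts) as a term beside group, an alternative chosen after seeing the data, 0 members passed and the members' median was -0.08. In that fit uIRI and sham are linked only through the uIRI+MSC libraries, and 5078 genes passed in all.

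Rps28, a small subunit protein gene with no unique coding piece, had the largest rise past the threshold. It was at 16.3 and 12.1 CPM in sham, 37.7, 41.7 and 37.2 in uIRI, and 30.1, 11.2 and 6.38 in uIRI+MSC. The uIRI libraries lay well above sham, uIRI+MSC 1 lay nearer to uIRI, and uIRI+MSC 2 and 3 lay below both sham libraries. The log2 fold change was 1.45 ± 0.54 (SE) with an edgeR adjusted p of 0.049. The call was lost on leaving out any 1 of the uIRI or sham libraries or uIRI+MSC 2. It was also lost with median-of-ratios factors in place of TMM, at an edgeR adjusted p of 0.0502. With the depth term the value was -0.32.

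Rpl30, a large subunit gene, was at 36.2 and 30.0 CPM in sham, 91.2, 87.4 and 82.9 in uIRI, and 85.2, 42.7 and 33.7 in uIRI+MSC. Its log2 fold change in uIRI against sham was 1.40 ± 0.35 (SE, edgeR adjusted p = 0.00975). Rpl39, whose small protein lines the tunnel through which the new peptide leaves the ribosome, was at 13.4 and 10.7 CPM in sham, 27.4, 28.2 and 27.5 in uIRI, and 24.8, 15.9 and 12.3 in uIRI+MSC, a log2 change of 1.20 ± 0.28 (edgeR adjusted p = 0.00671). In both genes the uIRI libraries and uIRI+MSC 1 formed the high end, with a gap to all others. Without sham 2 neither passed, at an edgeR adjusted p of 0.068 for Rpl30 and 0.0542 for Rpl39.

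Rps24 and Rps4x kept their call whichever library was left out and lost it only with the depth term, among the 19 alternatives. Rps24, mutated in Diamond-Blackfan anaemia, was at 117 and 104 CPM in sham, 243, 224 and 227 in uIRI, and 222, 152 and 127 in uIRI+MSC. Its log2 fold change was 1.07 ± 0.23 (edgeR adjusted p = 0.00415). Rps4x, the X-linked gene for a small subunit protein, was at 285 and 241 CPM in sham, 462, 446 and 415 in uIRI, and 439, 385 and 337 in uIRI+MSC, with a log2 fold change of 0.75 ± 0.17 (edgeR adjusted p = 0.00544). For Rps4x every library of both injured groups lay above both sham libraries. Rps4l, its paralog without a coding transcript in the annotation, ranged from 18.4 to 24.4 CPM over the 8 libraries and did not pass in any comparison.

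Rpl12, which lies at the base of the ribosomal stalk, was a low count member with no unique coding piece. It was at 6.61 and 6.72 CPM in sham, 14.1, 12.9 and 13.1 in uIRI, and 12.1, 14.7 and 8.23 in uIRI+MSC. All libraries of both injured groups lay above sham, and the log2 fold change in uIRI against sham was 1.01 ± 0.25 (edgeR adjusted p = 0.00914, and 0.0541 without sham 1). Its promoter window carries the run of C and T shown above.

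**Figure D2:**
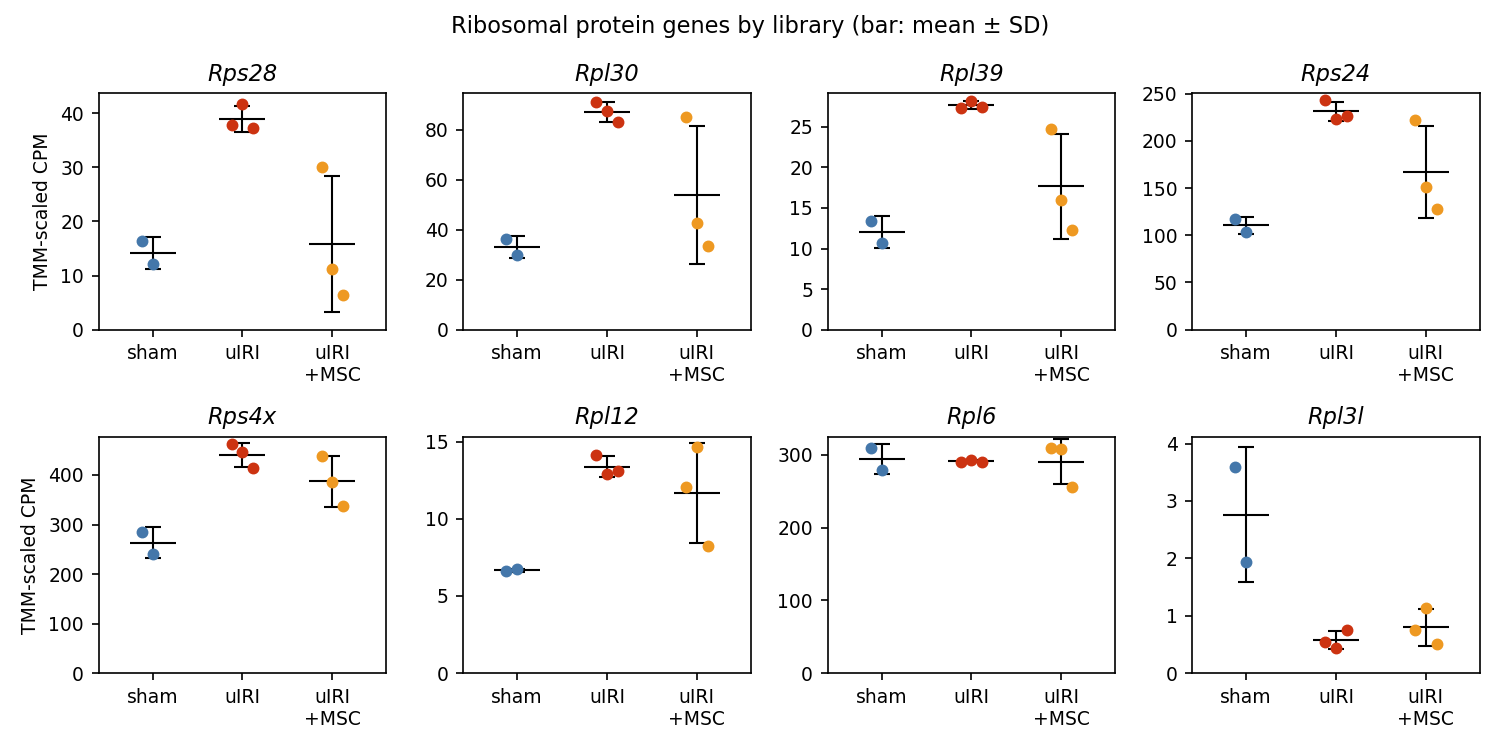
TMM-scaled CPM of 8 ribosomal protein genes in each library, with the mean and SD of each group (sham n = 2, uIRI n = 3, uIRI+MSC n = 3); axes start at 0. In Rps28, Rpl30, Rpl39 and Rps24 the first uIRI+MSC library lies near the uIRI libraries and the other two lie nearer to sham, while Rpl6 is level in all groups and Rpl3l is highest in sham.

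The other 8 genes that rose had log2 fold changes from 0.44 in Rps12 to 0.92 in Rpl35, with Rps20, Rpl31, Rps15a and Rpl3 among those between. Rpl35 was at 45.4 and 31.7 CPM in sham and 78.5, 72.6 and 67.0 in uIRI, and lost its call without uIRI 1 or sham 2. Rpl3, which sits near the catalytic centre of the large subunit, was at 123 and 118 CPM in sham, 182, 189 and 179 in uIRI, and 189, 168 and 130 in uIRI+MSC. Its log2 fold change was 0.60 ± 0.17 (edgeR adjusted p = 0.015), lost without sham 1 or sham 2. Rps15a lost its call without uIRI 1, uIRI 2 or either sham library, and Rps20 without any 1 uIRI or sham library. Rpl31 lost it without any 1 uIRI or sham library or uIRI+MSC 2, and Rps12 without uIRI 1, uIRI 2, uIRI+MSC 2 or either sham library. Some of these calls also depended on the method. Rpl31 was not called by limma-voom or with median-of-ratios factors. Rps12 was not called by DESeq2, by limma-voom or without the count filter, and Rps15a was not called with the length trend removed.

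Several short genes had changes as large and did not pass. Rpl38, known for its part in translating Hox mRNAs, had a log2 fold change of 1.38 ± 0.54 (edgeR adjusted p = 0.0569), Rpl37 of 1.19 ± 0.47 (0.0583) and Rps21 of 1.14 ± 0.46 (0.0622). In all 3 the groups did not overlap, and all 3 passed without uIRI+MSC 1 or without uIRI+MSC 3. Rpl41, with 75 coding bases the shortest of all members, was at 161 and 119.98 CPM in sham, 240.3, 255 and 234 in uIRI, and 268, 131 and 89.4 in uIRI+MSC. Its log2 change was 0.79 ± 0.40 (edgeR adjusted p = 0.122, 0.0153 without uIRI+MSC 1 and 0.0454 without uIRI+MSC 3), and it had no unique coding piece.

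Rpl3l, the paralog of Rpl3 that is made mainly in heart and skeletal muscle, was the 1 member that fell. It was at 3.60 and 1.93 CPM in sham, 0.539, 0.440 and 0.754 in uIRI, and 0.754, 1.14 and 0.504 in uIRI+MSC, so both sham libraries lay above all others at a low level. The log2 fold change was -2.26 ± 0.46 (edgeR adjusted p = 0.00321) in uIRI against sham and -1.77 ± 0.46 (0.0151) in uIRI+MSC against sham, the latter at 0.171 without sham 1. All of its coding 50-base pieces were unique. Of 4 skeletal muscle markers, whose sum lay between 0.972 and 2.24 CPM in every library and was lowest in sham 1, 2 were tested and neither passed.

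The mRNAs of the stalk proteins Rplp0, Rplp1 and Rplp2 did not pass in any comparison, unlike that of Rpl12 at its base. The stalk draws translation factors to the ribosome. Rplp0 was at 563 and 494 CPM in sham, 618, 693 and 615 in uIRI, and 718, 637 and 514 in uIRI+MSC, a log2 change of 0.28 ± 0.18 in uIRI against sham (edgeR adjusted p = 0.226). Rplp1 was at 292 and 244 CPM in sham, 359, 359.98 and 333 in uIRI, and 369, 321 and 102 in uIRI+MSC. Rplp2 was at 99.7 and 84.3 CPM in sham, 131, 141 and 129 in uIRI, and 139, 109 and 47.2 in uIRI+MSC. In all 3 genes every uIRI library lay above sham, and in Rplp1 and Rplp2 the library uIRI+MSC 3 was below every other. Without that library Rplp1 and Rplp2 passed in uIRI against sham, at edgeR adjusted p of 0.0393 and 0.0123.

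Genes with known roles outside the ribosome also stayed short of the threshold. Rpsa, which also serves as a laminin receptor, was at 509 and 444 CPM in sham, 579, 577 and 524 in uIRI, and 602, 605 and 551 in uIRI+MSC, with a log2 change of 0.23 ± 0.15 (edgeR adjusted p = 0.214). Rpl5, which with Rpl11 restrains the p53 regulator Mdm2, was at 50.9 and 43.9 CPM in sham, 39.7, 36.4 and 37.9 in uIRI, and 40.5, 41.7 and 39.3 in uIRI+MSC. Its log2 change was -0.32 ± 0.12 (edgeR adjusted p = 0.0508), and every library of both injured groups lay below sham. It passed at 0.0199 with the length trend removed, 0.0491 with median-of-ratios factors and 0.0455 without uIRI+MSC 3. Rpl11 ranged from 4.12 to 5.93 CPM over all libraries, and Rps6, the main target of the S6 kinases, from 3.85 to 6.61 CPM. All 3 lack a unique coding piece.

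Rpl13a and Rps18 are often used as reference genes in quantitative PCR. Rpl13a was at 426 and 375 CPM in sham, 441, 474 and 489 in uIRI, and 493, 477 and 261 in uIRI+MSC. It did not pass in any comparison. Rps18 was at 35.8 and 25.8 CPM in sham, 68.0, 75.6 and 69.4 in uIRI, and 69.2, 45.7 and 15.4 in uIRI+MSC. Its log2 fold change in uIRI against sham was 1.21 ± 0.50 (edgeR adjusted p = 0.0685), and it spanned 4.50-fold within uIRI+MSC. It passed without uIRI+MSC 1, at 0.0392, and without uIRI+MSC 3, at 0.00232.

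At the other end, Rpl28 and Rpl6 were among the 3 members with the smallest changes in uIRI against sham. Rpl6 was at 309 and 279.7 CPM in sham, 290.2, 294 and 291 in uIRI, and 309, 308 and 256 in uIRI+MSC. Its log2 change was -0.01 ± 0.14 (edgeR adjusted p = 0.94), against 0.66 with scaling by library size alone.

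In uIRI+MSC against uIRI, 0 of the 82 members passed the test, as did 0 of all 16576 genes (0% higher and 0% lower). At an unadjusted p under 0.05, edgeR gave 4 members lower and 0 higher, against 9.34% of all genes lower and 11.3% higher, DESeq2 gave 6 lower and limma-voom 7 lower. After adjustment DESeq2 and limma-voom also called 0 members, while DESeq2 called 1334 genes in all. The median log2 fold change was -0.23 over the members and -0.01 over all genes, with 69 members below 0 and 13 above. In 11 members every uIRI+MSC library lay below every uIRI library, against 12.7% of all tested genes, and in 0 members above, against 14.1%. The members' median was -0.03 without uIRI+MSC 3, -0.37 without uIRI+MSC 1 or without uIRI+MSC 2, and 0.03 with the depth term.

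The 3 uIRI+MSC libraries differed from each other more in the members than in other genes. The median coefficient of variation within uIRI+MSC was 35.2% over the members and 17.3% over the other tested genes, while within uIRI it was 5.53% and 13.4% and within sham 11.8% and 11.7%. uIRI+MSC 3 was the lowest of its group in 74 members (90.2%), against 39.9% of all genes, and the lowest of all 8 libraries in 52 (63.4%), against 14.3%. uIRI+MSC 3 lay within or above the uIRI libraries in 10 members (12.2%), against 63.7% of all genes, while for uIRI+MSC 1 the shares were alike, at 65.9% and 66%. uIRI+MSC 3 lay below both sham libraries in 58 members (70.7%), against 42.9% of all genes. In sham, 76 members (92.7%) were higher in sham 1 than in sham 2, against 51.5% of all genes.

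The largest drops in uIRI+MSC against uIRI were in Rps28, at -1.27 ± 0.46 on the log2 scale (edgeR adjusted p = 0.183), Rps29 at -0.92 ± 0.47 (0.307) and Rps21 at -0.89 ± 0.39 (0.247). Rps29 was near the floor, with a mean of 0.786 CPM over the 8 libraries, and had no unique coding piece. Rpl10, Rpl6 and Rpl4 had the smallest changes. Rpl4, 1 of the 5 members of highest level, was at 702 and 619 CPM in sham, 736, 768 and 698 in uIRI, and 745, 716 and 755 in uIRI+MSC. Its log2 change was 0.01 ± 0.13 (edgeR adjusted p = 0.98). Rpl10, a late joining protein of the large subunit, ranged from 37.6 to 53.7 CPM over all libraries.

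Against sham, 2 members rose and 2 fell in uIRI+MSC, against 22.1% of all tested genes higher and 20.3% lower. The median was 0.13 over the members and 0.03 over all genes. The members' median changed sign to -0.13 without uIRI+MSC 1 and with the depth term, and it was 0.02 without sham 2, 0.27 without sham 1 and 0.38 without uIRI+MSC 3. In 9 members the groups did not overlap with uIRI+MSC higher, against 33% of all tested genes, and in 8 with uIRI+MSC lower, against 31.2%. Rpl12 rose by a log2 fold change of 0.81 ± 0.25 (edgeR adjusted p = 0.031) and Rps4x by 0.56 ± 0.17 (0.0263). Rpl35a, another Diamond-Blackfan anaemia gene, fell together with Rpl3l. It was at 28.8 and 19.98 CPM in sham, 18.8, 18.1 and 15.9 in uIRI, and 17.6, 13.7 and 9.49 in uIRI+MSC, a log2 change of -0.83 ± 0.26 (edgeR adjusted p = 0.0329). Without uIRI+MSC 3 the count was 20 higher and 1 lower, without uIRI+MSC 2 or without sham 2 it was 0 higher and 2 lower, and without sham 1 it was 0. Rpl12 and Rps4x did not pass on leaving out sham 1, sham 2, uIRI+MSC 1 or uIRI+MSC 2, nor Rpl35a without sham 1, uIRI+MSC 2 or uIRI+MSC 3. Scaling by library size alone gave 29 higher and 0 lower, with 8752 genes passing in all, against 7029 with TMM scaling. In all, 6914 genes passed without uIRI+MSC 3 and 6097 without uIRI+MSC 2. All 3 comparisons share libraries, so their values are set side by side and not as independent results. Rpl6 and Rps3 were among the 3 members with the smallest changes.

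In uIRI against sham and in uIRI+MSC against uIRI, the members' changes differed with the length of their coding sequence. In uIRI against sham the median log2 change was 0.97 in the 10 tested members under 300 coding bases, 0.45 in the 28 of 300 to 449, 0.24 in the 19 of 450 to 599, 0.13 in the 20 of 600 to 899 and 0.22 in the 4 of 900 to 1499. Among other genes the medians in the same classes were -0.17, -0.20, -0.12, -0.08 and 0.01. In uIRI+MSC against uIRI the members' medians were -0.65, -0.37, -0.27, -0.14 and -0.02, and those of other genes -0.20, -0.07, -0.04, -0.01 and 0.01. Spearman's rho between coding length and change over 81 members was -0.39 in the first comparison and 0.63 in the second, against 0.11 and 0.03 over 14816 other genes. In uIRI+MSC against sham it was -0.13 over the members and 0.15 over other genes. These are correlations across genes that share the same libraries. By the gene length behind the deposited FPKM values, the medians in uIRI against sham showed no such order, at 0.41, 0.23, 0.31 and 0.35 in 4 classes from the shortest to the longest.

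**Figure D3:**
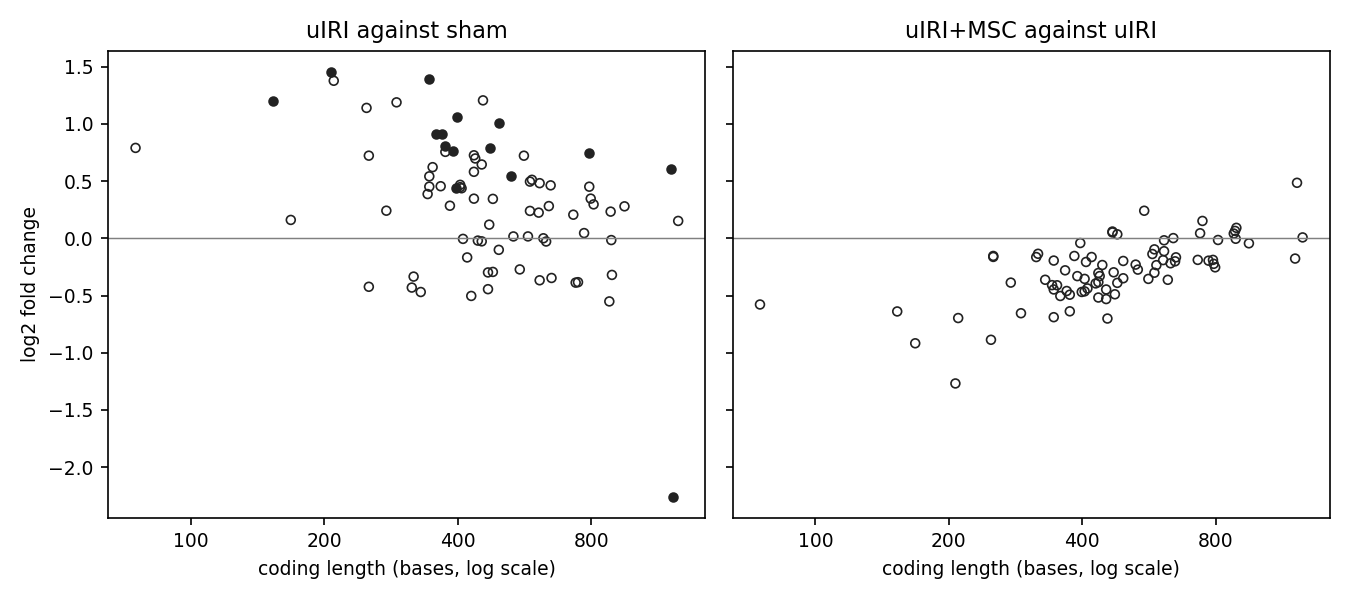
Log2 fold change of each tested ribosomal protein gene against its coding length in bases (log scale), for uIRI against sham (left) and uIRI+MSC against uIRI (right); filled points passed the test. The shortest genes lie highest on the left and lowest on the right, and no point on the right is filled.

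Library by library, the short members of uIRI+MSC 1 stood with those of the uIRI libraries. Relative to the sham mean, the members under 300 bases had a median log2 level of 0.99, 1.01 and 0.91 in uIRI 1, 2 and 3, 0.97 in uIRI+MSC 1, 0.16 in uIRI+MSC 2 and -0.82 in uIRI+MSC 3, with 0.21 and -0.21 in sham 1 and 2. In the class of 600 to 899 bases the same libraries stood at 0.15, 0.11, 0.12, 0.14, 0.24 and -0.28. Other genes under 300 bases stood at -0.15, -0.15 and -0.15 in uIRI, -0.13 in uIRI+MSC 1, -0.29 in uIRI+MSC 2 and -0.61 in uIRI+MSC 3. The low values of uIRI+MSC 3 were thus present in short genes of both kinds, and the high values of uIRI 1, 2 and 3 and uIRI+MSC 1 in the members but not in other short genes. The part of depth in these gradients was not tested. With a per-library trend on the gene length behind the deposited FPKM removed, 22 members rose and 3 fell in uIRI against sham. In that fit 9215 genes passed in all. A trend on coding length was not removed in any fit.

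**Figure D4:**
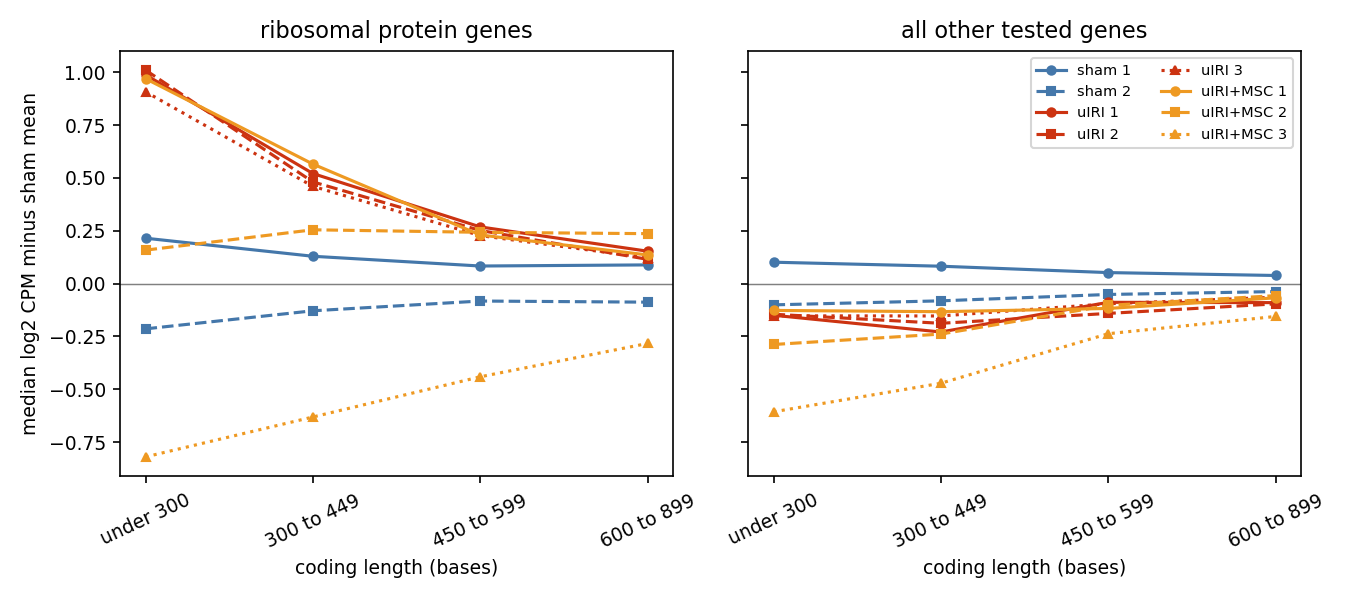
Median log2 CPM of each library minus the sham mean, in 4 classes of coding length, for the ribosomal protein genes (left) and all other tested genes (right); lines join the classes of 1 library. uIRI 1, 2 and 3 and uIRI+MSC 1 rise to between 0.91 and 1.01 in the shortest members, while uIRI+MSC 3 falls in short genes of both panels.

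Levels differed widely between members. The deposited FPKM values divide counts by a gene length that was a median of 3.35 times the length of the main annotated mRNA in the members, up to 18.5 times in Rps15a, and 1.77 times in other tested genes. Levels are therefore given as CPM per kb of that mRNA as well. Rplp1 led on both scales, with a mean FPKM of 621 and 596 CPM per kb, followed by Rpl8 at 577 and 575. Rps2 was the fourth per mRNA length, at 470.4, but the 23rd by FPKM, at 96.1. Rpl8 itself was at 523 and 480.1 CPM in sham, 506, 553 and 494 in uIRI, and 564, 474 and 319 in uIRI+MSC.

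The lowest members were mostly those whose coding sequence is shared. Of the 29 members with no unique coding piece, 11 lay under 10 CPM per kb of mRNA, among them Rps13, Rpl9, Rps27 and Rps6, against 5 of the 54 others. The median was 80.5 in members with under 50% unique pieces, 283 in those with 50 to 90% and 228 in those with 90% or more. Spearman's rho between unique share and level was 0.55 over 81 tested members. Change was less tied to it, since rho was 0.11 between unique share and the change in uIRI against sham. Of the 4 tested members with at least 90% unique pieces, 0 rose and Rpl3l fell.

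**Figure D5:**
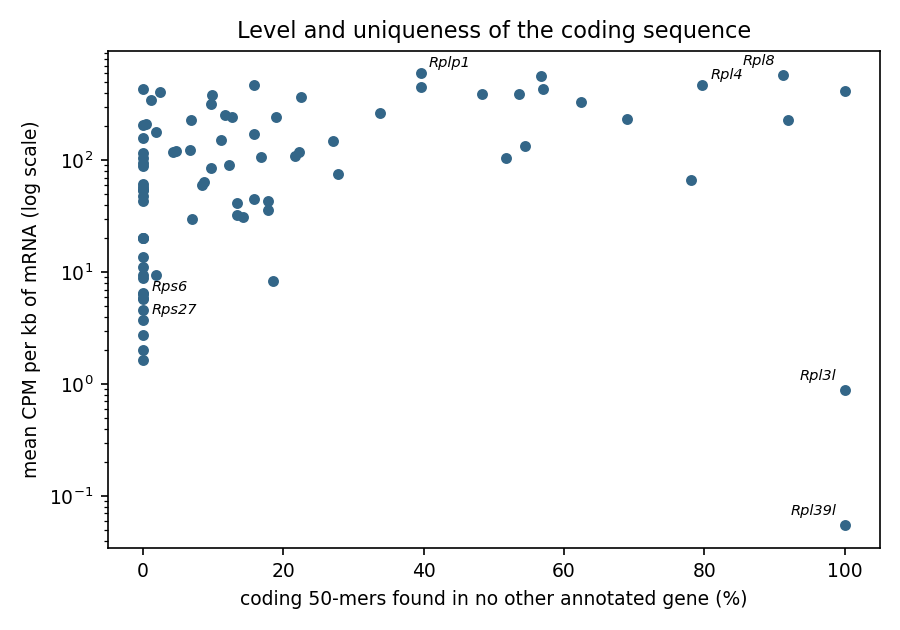
Mean level of each ribosomal protein gene over the 8 libraries, in CPM per kb of its main mRNA (log scale), against the percent of its coding 50-base pieces found in no other annotated gene; Rpl10l, at 0 counts, is not drawn. Members with no unique piece spread down to low levels, and most others lie higher, apart from Rpl3l and Rpl39l at 100%.

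The tissue-restricted paralogs were low and the widely made ones were not. Rpl10l, a testis paralog of Rpl10, had 0 counts, and Rpl39l, a germ cell paralog of Rpl39, had counts only in uIRI 1 and uIRI 2. Rpl22l1 was at 24.3 and 17.2 CPM in sham, 30.4, 28.3 and 26.7 in uIRI, and 25.9, 33.0 and 11.2 in uIRI+MSC, beside Rpl22 at 97.9 and 100.4, 137, 111 and 114, and 102, 134 and 89.4. Rpl7l1, a nucleolar assembly protein, was at 106 and 103 CPM in sham, 78.5, 77.7 and 83.6 in uIRI, and 92.3, 89.7 and 65.2 in uIRI+MSC, a log2 change of -0.39 ± 0.16 (edgeR adjusted p = 0.0702, and 0.0134 without uIRI+MSC 3). Its parent Rpl7 ranged from 327 to 482 CPM, with a log2 change of 0.30 ± 0.17 (edgeR adjusted p = 0.161). For Rpl7l1 the injured libraries lay below sham, and for Rpl7 every uIRI library lay above sham. Rpl22 and Rpl22l1 did not pass in any comparison.

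Of 6 ribosomal genes outside the name rule, 2 rose, 1 fell and 3 did not pass in uIRI against sham. Of all tested genes, 28.3% were higher and 26.3% lower there. Rps27rt rose by a log2 fold change of 1.73 ± 0.47 (edgeR adjusted p = 0.0137) and Rpl37rt by 1.62 ± 0.51 (0.0259). Rpl37rt was at 34.8 and 27.5 CPM in sham, 95.6, 100.7 and 90.9 in uIRI, and 106, 34.3 and 28.9 in uIRI+MSC, the pattern of Rps28 and Rpl30. Neither Rps27rt nor Rpl37rt passed without sham 1 or without sham 2, and Rpl37rt also not without uIRI 2. In the other comparisons edgeR called 0 of the 6, with 0 at an unadjusted p under 0.05 in uIRI+MSC against uIRI and 1 lower in uIRI+MSC against sham. DESeq2 called 0 and 1 lower, and limma-voom 0 in both.

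The machinery around the ribosome moved little as a group. The counts in uIRI against sham stand beside 28.3% of all tested genes higher and 26.3% lower. Of 18 translation factors and other TOP mRNAs, Hnrnpa1, Gas5 and Eif3f rose, Nap1l1 and Eif3l fell and 13 did not pass in uIRI against sham, with a median of 0.02. Hnrnpa1, an RNA-binding protein gene, had the largest change of them, at 1.06 ± 0.24 (edgeR adjusted p = 0.00538). Of 32 ribosome assembly genes, Npm1, Nop56, Gar1 and Heatr1 rose and Utp20 and Nhp2 fell, while 26 did not pass; the median was 0.10. Npm1, a nucleolar chaperone gene, was at 132 and 135 CPM in sham, 211, 241 and 198 in uIRI, and 278, 236 and 240.3 in uIRI+MSC. It rose by 0.70 ± 0.15 (edgeR adjusted p = 0.00392) in uIRI and by 0.91 ± 0.15 (0.00178) in uIRI+MSC against sham. In Npm1 all 3 uIRI+MSC libraries lay above both sham libraries. Utp20 and Nhp2 did not pass without sham 1.

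Among 15 regulators of ribosome production, Myc and Eif4ebp1 rose and 4 fell in uIRI against sham, while 9 did not pass. The median of the 15 was -0.27. Of all tested genes, 28.3% were higher and 26.3% lower. Mtor, the kinase that drives translation of TOP mRNAs, was at 462 and 356 CPM in sham, 85.9, 116 and 97.0 in uIRI, and 168, 132 and 172 in uIRI+MSC. Its log2 change was -2.04 ± 0.19 (edgeR adjusted p = 8.1e-05) in uIRI and -1.38 ± 0.19 (0.000854) in uIRI+MSC against sham. Rheb, Eif4ebp2 and Larp1 also fell. Eif4ebp1, an inhibitor of translation that mTOR switches off, rose by 1.17 ± 0.28 (edgeR adjusted p = 0.00698, and 0.0575 without sham 2), and Myc rose by 0.76 ± 0.26 (0.0333). Myc did not pass without sham 1, sham 2, uIRI 2 or uIRI 3, nor by limma-voom (adjusted p = 0.0607). With the length trend removed the edgeR adjusted p of Myc was 0.0766. With the depth term Myc and Eif4ebp1 did not pass in uIRI against sham, at edgeR adjusted p of 0.0794 and 0.213. In uIRI+MSC against uIRI, edgeR called 0 of the 18 TOP mRNAs, 0 of the 32 assembly genes and 0 of the 15 regulators. At an unadjusted p under 0.05, edgeR gave 4 TOP mRNAs, 1 assembly gene and 1 regulator higher and 1 regulator lower. Of all tested genes, 11.3% were higher and 9.34% lower at that threshold. After adjustment DESeq2 called Mtor higher, at a log2 change of 0.64 (adjusted p = 0.0189), and Mycn lower among the regulators, and 0 genes of the other lists, and limma-voom called 0. Against sham, 2 TOP mRNAs, 2 assembly genes and 2 regulators rose in uIRI+MSC, and 1 assembly gene and 2 regulators fell. Of all tested genes, 22.1% were higher and 20.3% lower in that comparison.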

How the data were processed

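For each gene and library, the authors deposited 1 count and 1 FPKM value. The counts stand in columns named count and were taken as read numbers per gene before any normalization, on GRCm38 coordinates. The authors' FPKM was taken as the same count divided by a gene length and by the library total. Checked on 9632 genes, FPKM times the library total over the count held to within 0.00054% between libraries. Per the submitters' processing notes, the tools were StringTie 1.3.3b, HISAT2 2.0.4, edgeR 3.2.0, Bowtie2 2.2.6, FastQC 0.10.1 and SAMtools 1.9, with no role stated. The annotation, the strand setting and the fate of reads fitting several genes are not stated in the labels, column names or notes used here. Without strand, reads of overlapping or antisense genes cannot be told apart.

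The filter was filterByExpr at a minimum count of 10 (edgeR 4.0.16, R 4.3.3). Counts were scaled by TMM and fitted over all 8 libraries by group with the quasi-likelihood test (5 residual degrees of freedom). Benjamini-Hochberg adjustment ran over the 16576 genes tested, at 0.05. Levels of single libraries are TMM-scaled CPM, and log2 levels use a prior count of 2. Coding and mRNA lengths and the 50-base pieces come from the main transcript in GENCODE M21, and start windows from RefSeq. Replicate libraries differed beyond counting noise, so none was treated as a repeat.

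The members follow from the name rule alone, but that rule and the lists were set with earlier results of these data known. Values by library are given for the 5 members of highest mean FPKM, the stalk genes and Rpsa, paralogs beside their parents, Rpl13a, Rps18, Rpl41, Rpl5, Rpl11 and Rps6, and in each comparison for the 3 largest rises and falls past the threshold, while the 3 smallest changes are named. Some genes that this rule covers are not reported here. Rpl38, Rpl37, Rps21, Rpl35, Rps24, Rps29, Rps2 and the other genes named beyond this were chosen after their values were seen. The lists are ribosomal genes outside the name rule, TOP mRNAs, ribosome assembly, regulators, and markers of kidney tubule, podocyte, leukocyte, cycling cells and skeletal muscle. Alternatives were DESeq2 1.42.0, limma-voom (limma 3.58.1), other scalings and filters, only the 2 groups compared, a replicate block and leaving out each library. Another was removal of a trend on length, taken as the gene length behind the deposited FPKM. The depth term, the restriction to members with at least 90% unique pieces and the coding length classes were chosen after seeing the data. Plots used Python 3.11.15 and matplotlib 3.10.9.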

Additional observations from a re-analysis of the deposited data

How the results depend on the processing

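In uIRI against sham the count of members past the threshold was 15, with 9044 genes passing in all. It was 58 with scaling by library size alone (11033 genes in all), 25 with the length trend removed (9215) and 40 with only the 2 groups compared (9508). With the depth term it was 0 (5078), and it was 1 of the 4 tested members with at least 90% unique pieces. Leaving out each uIRI or uIRI+MSC library in turn gave 7 to 40, with 7684 to 9863 genes in all. The members' median of 0.35 became 1.02 with library size alone and -0.076 with the depth term, and was 0.28 to 0.45 on leaving out each library. Over members of under 450 coding bases it was 0.51. DESeq2 (18), limma-voom (13), median-of-ratios factors (14), TMM without the members (15) and both filters (16 and 14) stayed within 1.5 times. The genes called were not all the same. Of the 15 calls, DESeq2 kept 14, limma-voom 13, median-of-ratios factors 13 and each filter 14. In uIRI+MSC against uIRI the count was 0 under every alternative run. In uIRI+MSC against sham the count of 4 stood beside 7029 genes passing in all. It became 29 with library size alone (8752 genes), where the median was 0.65. The count was 7 with the length trend removed (7297) and 2 with only the 2 groups compared (6327). It was 1 of 4 members with at least 90% unique pieces, and 2 to 21 on leaving out each uIRI or uIRI+MSC library. The members' share was 0.820% in sham outside mitochondrial counts and 1.48% in uIRI with 21 pseudogene rows added. The cause was not tested.

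Some values changed sign. In uIRI against sham, the depth term gave -0.32 for Rps28 and -0.12 for Rpl37rt. Scaling by library size alone shifts all genes together and gave 0.66 for Rpl6, 0.35 for Rpl5 and 0.15 for Utp20, beside a median over all tested genes of 0.73, and in uIRI+MSC against sham 0.50 for Rpl6, so these signs say nothing of the single genes. With the replicate number as a block, 29 members passed in uIRI against sham, with a median of 0.47, all 15 earlier calls among them. In that comparison 7959 genes passed in all, and the count of members in the other comparisons was 0 and 4. Same-numbered libraries correlated by -0.21 to 0.11 in their deviations from group means. The sham deviations mirror each other, as uIRI 1 correlated by -0.21 with sham 1 and by 0.21 with sham 2. Deviations within such small groups are tied to each other, so these values cannot show whether the numbers pair the samples. A fit that leaves out 1 sham library assumes that the lone one varies like the other groups. Counting error is largest, relative to the level, in members with few counts, such as Rpl3l with 142 over the 8 libraries.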
